A study of Mus musculus with 6 samples.

Results

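The genes described here encode the subunits of the mitochondrial respiratory chain and the ATP synthase in inguinal white adipose tissue (iWAT), a subcutaneous fat depot. They were chosen by name alone, as the Ndufa, Ndufb, Ndufc, Ndufs and Ndufv genes, Sdha to Sdhd, the Uqcr genes and Cyc1, the Cox4 to Cox8 families, the Atp5 genes and the protein genes of the mitochondrial genome. Pseudogenes marked as such in their names were left out, and so were Cox7a1 and Cox8b, which mark brown fat. The rule found 101 of 55573 listed genes, of which 88 are nuclear and 13 mitochondrial. Total RNA was sequenced from 3 mice homozygous for a global knock-in that replaces 2 lysines of the thyroid hormone receptor THRA (K283Q/K288R, called mutant) and from 3 Wt mice, with 1 library per mouse. All 6 were untreated male C57BL/6NTac mice on chow diet at 3 months of age. The substitutions were made to reduce the attachment of the small protein SUMO to the receptor, and they are present in every tissue, so a difference in fat need not arise in fat cells. The comparison asks whether RNA of the respiratory chain differs between mutant and Wt fat.

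The respiratory chain passes electrons from NADH (complex I) and succinate (complex II) through ubiquinone to complex III, and from there through cytochrome c to oxygen at complex IV. Complexes I, III and IV pump protons across the inner mitochondrial membrane, and complex V, the ATP synthase, uses the gradient to make ATP. Complex II is encoded wholly in the nucleus, while the other complexes combine nuclear subunits with a few made from mitochondrial DNA. The mitochondrial genes are read as long transcripts that run along either strand and are cut into single RNAs at the tRNA genes between them. mt-Nd6 is the only protein gene on its strand. White fat cells hold fewer mitochondria than brown fat cells and muscle fibres, so a small amount of either tissue in the dissected depot can add much respiratory chain RNA.

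Reads on genes numbered 19607423 to 24228381 per mouse. The deposited values are CPM (reads scaled to a common library total) multiplied by a further factor for each mouse, called normalized CPM below. At this depth 3 reads are worth 0.126 to 0.157, a floor that covers counting error only, since PCR copies are not independent molecules. Of the 101 genes, 88 passed the filter on low values and were tested with limma among 16740 genes. Fold changes are mutant minus Wt on log2(value + 0.5), which understates the change of low genes. The p-values measure the spread between these mice, and with 3 mice against 3 an exact permutation test cannot go below 0.1. Thra itself carries base substitutions, so its level (117 to 147 in Wt mice, 137 to 170 in mutant mice) does not check the labels. All 10 markers of white fat cells were present, with a summed value of 15544 to 27222 per mouse. Skeletal muscle markers were abundant too, at a summed value of 14389 to 30611 in Wt and 23218 to 36368 in mutant mice. Markers of B cells and lymph node summed to 4.35 in mutant mouse 1 and to 431 to 1010 in the other 5 mice. Markers of mesothelium, the lining of body cavities, summed to 4.81 to 32.8 in Wt and to 37.7 to 77.2 in mutant mice. Of these 8 markers 6 were called higher, against 5.43% of all genes tested.

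None of the 81 nuclear genes tested differed between the genotypes at an FDR of 0.05, while 1 of the 7 mitochondrial genes tested did. That gene was mt-Nd6, higher in mutant mice. Of all genes tested, 8.03% were called, 5.43% as higher and 2.6% as lower. At an unadjusted p under 0.05, limma picked 8 nuclear genes, 3 higher and 5 lower in mutant mice, against 24.1% of all genes (12.2% higher and 12% lower). At an FDR of 0.1 it called 3, all lower, as it did 5.5% of all genes. The edgeR quasi-likelihood test on the recovered reads called 0 nuclear genes, with 6.88% of all genes, and the DESeq2 Wald test called 2 (1 higher and 1 lower), with 12.6% of all genes (7.91% higher and 4.67% lower). The median log2 fold change was 0.05 for the nuclear genes, 0.21 for the mitochondrial genes and -0.05 for all genes. In 51 nuclear genes the fold change was above 0 and in 30 below. The 95% confidence interval of limma lay within 1 log2 unit of 0 on both sides for 79 of the 81 nuclear genes and within 0.5 for 44. The 2 genes with an interval beyond 1 were Cox6a2 and Atp5g2. The groups did not overlap in 10 nuclear genes, 5 higher and 5 lower in mutant mice, while 14.9% of all genes were higher and 15.7% lower without overlap. In whole tissue, fewer cells of a type and less RNA per cell cannot be told apart.

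**Figure D1:**
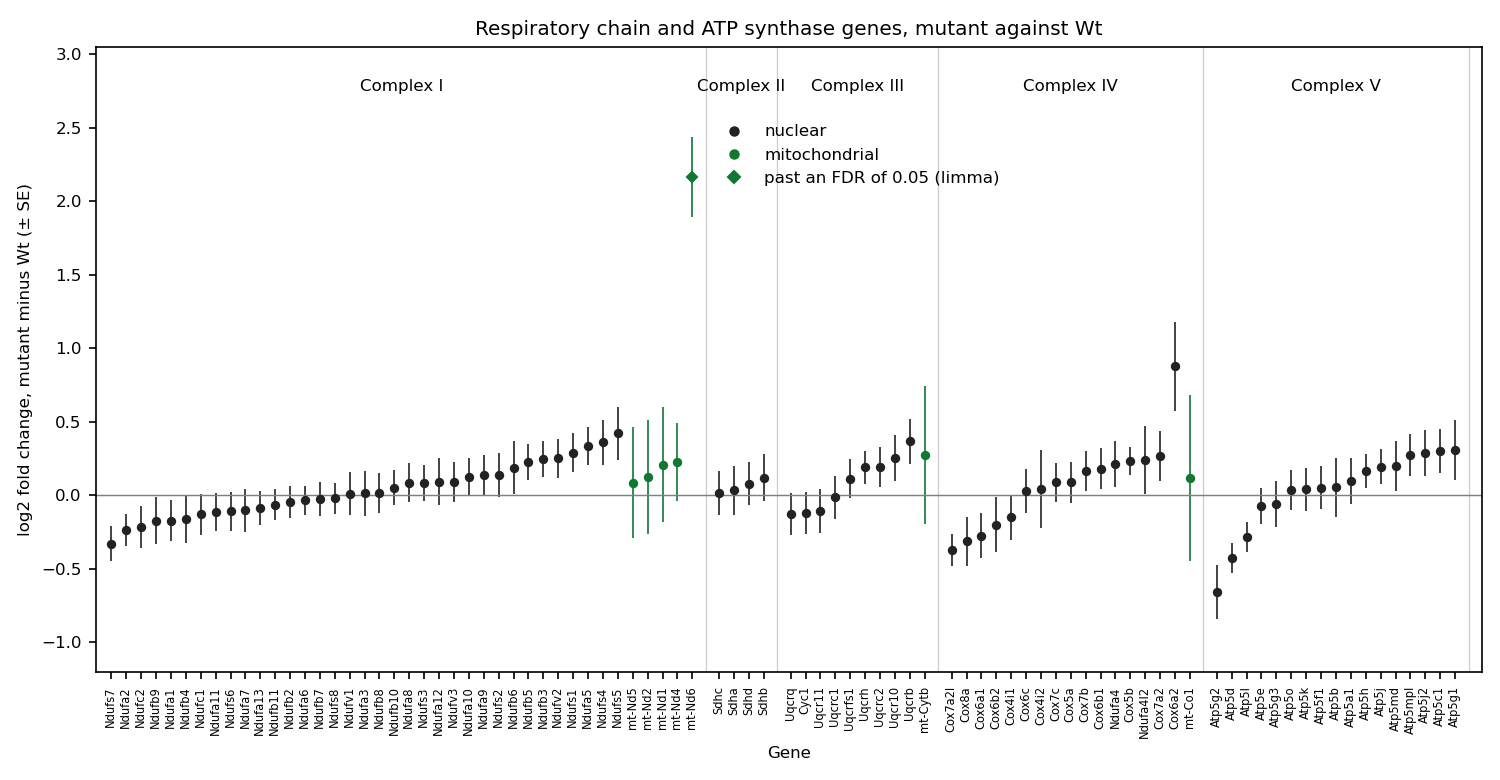
Log2 fold change (mutant minus Wt, on log2(value + 0.5)) of the 88 genes tested, by complex, with bars of 1 standard error from limma, nuclear genes in black and mitochondrial genes in green. Nuclear genes lie between -0.66 and 0.88, and mt-Nd6, drawn as a diamond, stands at 2.17.

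The median standard error was 0.14 for nuclear and 0.39 for mitochondrial genes, and 0.16 for all genes tested. limma draws the variance of each gene towards a trend over the level. Computed from the gene's own spread between mice alone, the median standard error was 0.16 for nuclear and 0.26 for mitochondrial genes. It was below that of limma in 6 of the 7 mitochondrial genes, as in mt-Co1 (0.21 against 0.56) and mt-Cytb (0.18 against 0.47), and above it in mt-Nd6 (0.34 against 0.27).

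Of the 13 mitochondrial protein genes, 6 were listed at 0 or next to it. mt-Co2, mt-Co3, mt-Atp6, mt-Nd3 and mt-Nd4l had 0 reads in every mouse, and mt-Atp8 had 1 read in mutant mouse 1 and 0 in the others. These genes encode subunits of complexes IV, V and I, and they lie between mt-Co1 and mt-Nd4, which had at least 64404 reads in every mouse. The first 5 have near-identical copies in the nuclear genome, on chromosome 1, where GENCODE M21 lists a pseudogene for each. Compared in windows of 50 bases, 100% of mt-Co2, 99.5% of mt-Atp6, 99.9% of mt-Co3, 98.8% of mt-Nd4l and 98.0% of mt-Nd3 were found in another annotated gene. No other annotated gene shared a window with mt-Atp8, which lies between mt-Co2 and mt-Atp6. Only annotated genes were searched, so a copy of mt-Atp8 outside them was not looked for. This includes the stretch of chromosome 1 between the copies of mt-Co2 and mt-Atp6. The starts of mt-Co2 and mt-Nd3 are shown beside their nuclear copies, to let the likeness be seen. The sequences are from the GENCODE M21 transcripts on GRCm38, 5′ to 3′ on the coding strand, from chrM:7013-7072 and chrM:9459-9518 (+ strand) and from chr1:24615506-24615565 and chr1:24613060-24613119 (- strand). A base that differs is in capitals.
mt-Co2: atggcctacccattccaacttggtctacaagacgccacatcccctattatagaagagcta
Gm28661: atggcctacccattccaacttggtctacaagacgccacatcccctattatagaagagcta
mt-Nd3: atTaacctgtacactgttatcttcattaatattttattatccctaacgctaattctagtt
Gm28438: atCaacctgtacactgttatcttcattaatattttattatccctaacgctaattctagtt

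Over the 681 bases compared, mt-Co2 and Gm28661 had 0 differences, and the same held for mt-Atp6 and Gm10925 over 678 bases, mt-Co3 and Gm28437 over 783 and mt-Nd4l and Gm10222 over 294. mt-Nd3 and Gm28438 differed over 345 bases by 1 substitution, T3C, counted from 1 at the first base of mt-Nd3 (base 9461 of the mitochondrial genome). The copies had few reads. Gm28438 had 157, 125 and 50 reads in Wt mice and 130, 61 and 66 in mutant mice, and the copies of mt-Co2, mt-Atp6, mt-Co3 and mt-Nd4l had 0 to 9 reads per mouse. Neither row thus holds reads in the range of the neighbouring mitochondrial genes, and the levels of these 5 genes could not be measured. Nor do the reads on mt-Atp8 show that its RNA was absent. mt-Co1 and mt-Nd4 share 51.1% and 62.2% of their windows with nuclear copies, and the files do not show where in these genes the reads fell. mt-Nd1, mt-Nd6 and mt-Cytb share none. Among nuclear genes tested, 14 of 81 share at least 25% of their windows with another annotated gene and 35 share none.

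Per kb of the whole gene, the mean over the 6 mice was 10553 normalized CPM for mt-Cytb, 10326 for mt-Co1, 7651 for mt-Nd1, 5071 for mt-Nd2, 3798 for mt-Nd5 and 2552 for mt-Nd4. mt-Nd6, on the other strand, was at 592. The order turns on the shared bases. If these gave no reads, mt-Co1 would be highest at 21825, with unshared windows of 50 bases counted in place of bases. On that count mt-Cytb would stand at 11026, and mt-Nd4 at 7006 would pass mt-Nd2 at 5797 and mt-Nd5 at 4224. A gene has fewer windows than bases, so even mt-Cytb, which shares none, stands higher than per kb of the whole gene. For comparison, the most abundant nuclear gene per kb of exon was Atp5b, with 351. The 13 mitochondrial genes took 4.26% to 5.46% of reads in Wt and 4.99% to 6.44% in mutant mice, and the 88 nuclear genes 1.01% to 1.14% and 1.05% to 1.21%. In both cases the ranges of the genotypes overlapped. The mitochondrial share leaves out the 5 genes with 0 reads.

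mt-Nd6 encodes a membrane subunit of complex I at the proton-pumping arm (ENSMUSG00000064368, chrM:13552-14070, - strand). In Wt mice 1 to 3 its value was 158, 104 and 80.0. Mutant mice 1 to 3 stood at 631, 422 and 451. Each mutant mouse was above each Wt mouse, and the lowest mutant value stood well above the highest Wt value. The means were 114 ± 39.8 and 501 ± 113 (SD, n = 3), a ratio of 4.40 and a log2 fold change of 2.17 (SE 0.27; limma, adjusted p = 0.00653). The difference was past the threshold under each alternative setting tried, at a log2 fold change of 1.94 to 2.43. The reads behind it were 1902 to 3763 in Wt and 9399 to 12037 in mutant mice. Relative to mt-Nd5, its neighbour on the opposite strand, mt-Nd6 was at 2.101%, 1.35% and 1.59% in Wt mice and at 7.18%, 7.01% and 6.89% in mutant mice. This ratio is free of the scaling between mice, and it varied little among the mutant mice.

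The end of mt-Nd6 overlaps the end of mt-Nd5 by 14 bases. The last 60 bases of mt-Nd6 are shown to mark that stretch (chrM:13552-13611 on GRCm38, - strand, 5′ to 3′, from GENCODE M21), with the 14 bases that lie opposite mt-Nd5 in capitals.
mt-Nd6: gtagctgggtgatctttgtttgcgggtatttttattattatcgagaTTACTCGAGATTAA

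mt-Nd5 was 22.5 times as abundant as mt-Nd6, and RNA of its strand runs on opposite mt-Nd6 before it is cut. Whether the counting used strand is not given in the sources used here. Without strand, reads from mt-Nd6 and from the RNA opposite to it cannot be told apart. Across the table, 1159 of the genes tested lie opposite an exon of a gene whose mean value is 10 or more times theirs. Of these, 561 (48.4%) were called higher in mutant mice and 2 lower, against 2.23% called higher among the others. mt-Nd6 belongs to this set, and it is the only one of the 30 tested respiratory chain genes with an opposite-strand neighbour that does. The part of this pattern in the mt-Nd6 difference was not tested.

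Summed by strand, the tRNA genes of the mitochondrial genome divided in the same way. The 8 tRNA genes on the strand of mt-Nd6 together had 58, 41 and 19 reads in Wt mice and 319, 128 and 171 in mutant mice. In this sum all mutant mice were above all Wt mice. mt-Te alone gave 32, 31 and 9 of the reads in Wt and 211, 66 and 121 in mutant mice. mt-Ty and mt-Ts1 had 0 reads, and in mt-Tq and mt-Tc the groups overlapped. The 14 tRNA genes on the other strand had 2097, 1671 and 1682 reads in Wt and 1792, 1650 and 1693 in mutant mice, and the groups overlapped. Among those on the mt-Nd6 strand, mt-Tp was called higher (log2 fold change 1.47, SE 0.18; limma, adjusted p = 0.00577), on 4 to 35 reads per mouse. mt-Te, next to mt-Nd6, had a log2 fold change of 2.08 (SE 0.51; limma, adjusted p = 0.0596), with 9 to 32 reads in Wt and 66 to 211 in mutant mice. The 2 ribosomal RNAs, on the strand of the other protein genes, gave log2 fold changes of -0.18 and -0.16, neither called.

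**Figure D2:**
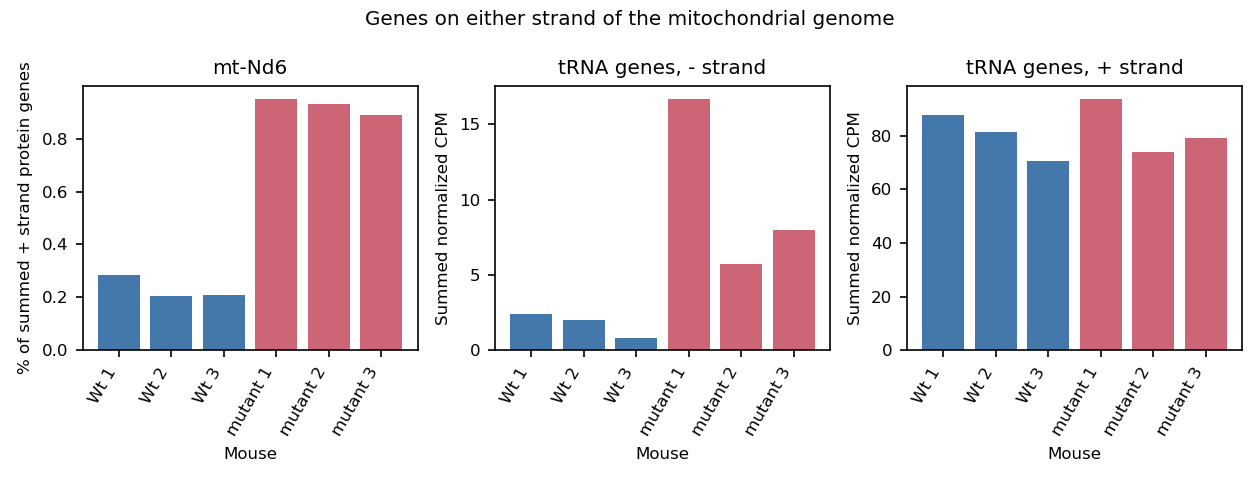
Each bar is 1 mouse (Wt blue, mutant red). The left panel gives mt-Nd6 as a percentage of the summed protein genes of the + strand (0.206 to 0.285 in Wt and 0.891 to 0.952 in mutant mice), and the others give summed normalized CPM of the tRNA genes on the - strand (0.799 to 2.43 against 5.74 to 16.7) and on the + strand, where the genotypes overlap.

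The 6 other mitochondrial genes tested, all on the + strand, were not called, and their groups overlapped. Their fold changes lay between 0.09 and 0.27, with a median of 0.17. mt-Co1, the catalytic core of complex IV, was at 17711, 15492 and 12621 in Wt mice and at 20183, 13993 and 15725 in mutant mice. mt-Cytb, the core of complex III, was at 12388, 10721 and 9611 against 15841, 11391 and 12487. The mt-Nd genes encode membrane subunits of complex I. mt-Nd1 was at 8010, 7405 and 5023 in Wt mice and at 9663, 6449 and 7379 in mutant mice. In mt-Nd4 the values were 3662, 3337 and 2710 in Wt and 4613, 3274 and 3508 in mutant mice. Mutant mouse 1 had the highest and Wt mouse 3 the lowest value in each of these, and in mt-Nd2 and mt-Nd5 too. mt-Nd2 ranged from 3350 to 6036 in Wt and from 4243 to 7199 in mutant mice, and mt-Nd5 from 5022 to 7680 and from 6020 to 8787. The limma intervals were wide, from -1.24 to 1.48 for mt-Co1 and from -0.73 to 1.15 for mt-Nd1. Without Wt mouse 3 the median log2 fold change of the mitochondrial genes was 0.0032, and without mutant mouse 1 it was 0.047.

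**Figure D3:**
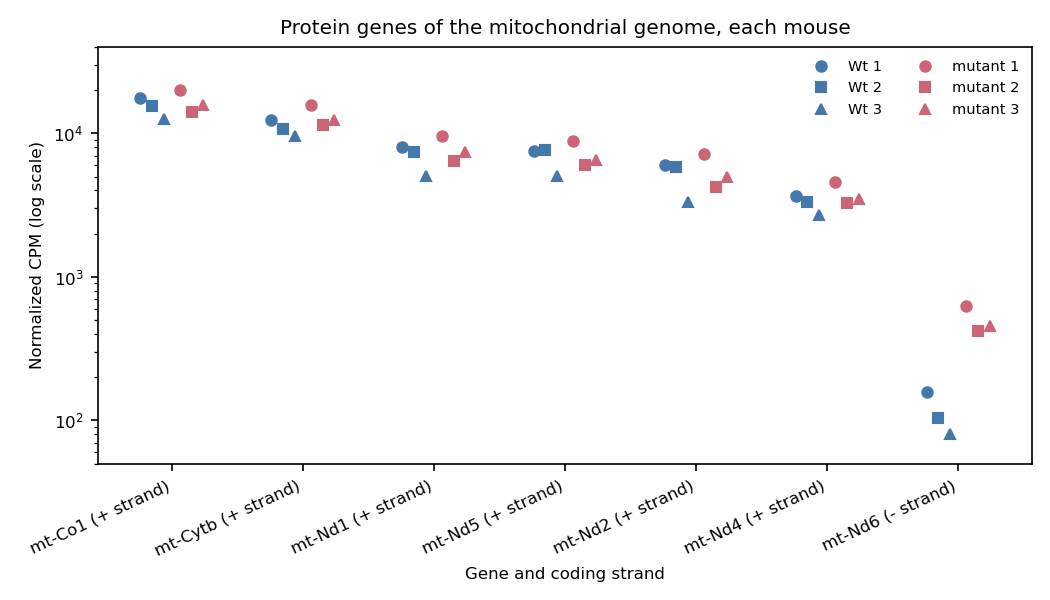
Normalized CPM on a log axis of the 7 mitochondrial protein genes with a test, ordered by mean value, with 1 point per mouse (Wt blue, mutant red, and the symbol giving the mouse number). The genotypes overlap in 6 genes and stand apart in mt-Nd6, at 80.0 to 158 in Wt and 422 to 631 in mutant mice.

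Complex I takes electrons from NADH and has the most subunits. Of its 38 nuclear genes 35 were tested and 0 called, 19 with a fold change above 0 and 16 below (median 0.01). The 3 smallest p-values belonged to Ndufs7, Ndufa5 and Ndufs5. Ndufs7, which holds the iron-sulfur cluster next to the ubiquinone site, was at 85.6, 69.5 and 67.5 in Wt mice and at 64.0, 54.3 and 57.8 in mutant mice. Each mutant value was under each Wt value, by a small margin, with a log2 fold change of -0.33 (SE 0.12; limma, adjusted p = 0.153). Ndufa5, an accessory subunit of the matrix arm, was at 55.1, 50.8 and 46.1 in Wt mice and at 74.8, 55.4 and 62.9 in mutant mice. Here the mutant mice were all higher, with a log2 fold change of 0.34 (SE 0.13; limma, adjusted p = 0.182). Ndufs5, an accessory subunit of the membrane arm, had values of 13.9, 10.2 and 11.4 in Wt and 19.7, 14.6 and 13.9 in mutant mice. Mutant mouse 3 was just above Wt mouse 1, and the log2 fold change was 0.42 (SE 0.18; limma, adjusted p = 0.215). Ndufs5 shares 31.1% of its windows with another annotated gene, so its value is uncertain. Ndufa2, the complex I gene with the highest value per kb of exon (120), was at 69.8 to 78.9 in Wt and 56.6 to 71.6 in mutant mice.

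Complex II, succinate dehydrogenase, also belongs to the TCA cycle. All 4 of its genes were tested, 0 were called, and each had a limma interval within 0.5 of 0. Sdha, the flavoprotein that oxidizes succinate, was at 711, 605 and 544 in Wt mice and at 759, 564 and 587 in mutant mice. Its log2 fold change was 0.04 (SE 0.17). Sdhb, the iron-sulfur subunit, had values of 161, 134 and 129 in Wt and 189, 136 and 139 in mutant mice (log2 fold change 0.12, SE 0.16). Sdhd, a membrane anchor, ranged from 105 to 138 in Wt and from 115 to 148 in mutant mice. For all of them mouse 1 had the highest value in either genotype, and the other mice of the 2 genotypes lay close together.

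Complex III passes electrons from ubiquinone to cytochrome c. All 9 nuclear genes were tested and 0 called, with a median log2 fold change of 0.11. Uqcrb, a subunit that lies close to the ubiquinone site, had the smallest p, with values of 32.0, 28.3 and 25.3 in Wt and 44.8, 34.1 and 32.5 in mutant mice. All mutant mice were above all Wt mice, mutant mouse 3 only just (log2 fold change 0.37, SE 0.15; limma, adjusted p = 0.205). Uqcrb shares 43.4% of its windows with annotated pseudogenes. Uqcrh, the hinge protein at the cytochrome c site, was at 123 to 142 in Wt and at 137 to 171 in mutant mice (log2 fold change 0.19, SE 0.11). Uqcr10, a small accessory subunit and the complex III gene with the highest value per kb (151), was at 66.6 to 93.5 in Wt and at 86.8 to 111 in mutant mice. In both the groups overlapped.

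Complex IV, cytochrome c oxidase, has subunits that exist in a widespread form and in a form typical of one tissue. Of its 19 nuclear genes, which include Ndufa4, now counted with complex IV, 16 were tested and 0 called. Cox7a2l had the smallest p. It was at 52.8, 61.0 and 66.8 in Wt mice and at 44.1, 49.99 and 44.7 in mutant mice. The mutant mice were all lower, with a log2 fold change of -0.37 (SE 0.11; limma, adjusted p = 0.0995). Cox5b, a subunit on the matrix side, was at 34.3 to 37.7 in Wt and 39.6 to 46.6 in mutant mice, without overlap, with a log2 fold change of 0.23 (SE 0.10; limma, adjusted p = 0.209). Cox8a had the highest value per kb of exon of complex IV (284), with 170 to 226 in Wt and 137 to 191 in mutant mice.

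Among the tissue forms, Cox6a2, the form of heart and skeletal muscle, had the largest fold change of all nuclear genes tested. It was at 44.5, 66.1 and 30.9 in Wt mice and at 92.5, 62.4 and 99.0 in mutant mice. Mutant mouse 2 was below Wt mouse 2, so the groups overlapped, and the log2 fold change was 0.88 (SE 0.30; limma, adjusted p = 0.140). The DESeq2 Wald test called Cox6a2 higher (adjusted p = 0.0361), as it did 7.91% of all genes. The edgeR quasi-likelihood test did not call it (adjusted p = 0.146). The summed muscle markers, of which Cox6a2 is itself 1, were at 30611, 27917 and 14389 in Wt mice and at 36368, 23218 and 36177 in mutant mice, with 13 of 14 having a fold change above 0. Myh1, a myosin of fast muscle fibres, was the only one called, while 5.43% of all genes were called higher. It was at 31.1, 279 and 166 in Wt and at 2405, 1986 and 2385 in mutant mice (log2 fold change 4.31, SE 0.75; limma, adjusted p = 0.0209). In the sum, as in Cox6a2, mutant mice 1 and 3 were highest and Wt mouse 3 was lowest. Myh1 was lowest in Wt mouse 1, and so were the markers Myh2, Myh7 and Mb. Their log2 fold changes were 2.58, 3.93 and 2.64, and they were not called. The part of muscle RNA in the Cox6a2 values, and in those of the other genes, which muscle also expresses, was not tested. Cox6a1, the widespread partner, was at 190, 149 and 165 in Wt and at 165, 136 and 117 in mutant mice (log2 fold change -0.28, SE 0.15; limma, adjusted p = 0.321). Per kb of exon, Cox6a1 had a mean of 219 and Cox6a2 of 96.9.

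The other tissue forms were low. Cox4i2, a form known from lung and low oxygen, was at 1.85 to 4.25 in Wt and 2.76 to 3.14 in mutant mice, and per kb of exon it had a mean of 3.83 against 207 for Cox4i1. Cox4i1 was at 307 to 390 in Wt and 270 to 358 in mutant mice. Cox6b2, the form of testis, was at 0.936 to 1.77 over all mice, and Cox6b1 at 170 to 245. Ndufa4l2, a paralog of Ndufa4 induced by low oxygen, was at 6.13 to 10.2 and Ndufa4 at 146 to 225. Ndufa4l2 is overlapped by Shmt2 on the other strand, 3.72 times as abundant. None of these 6 genes was called. Cox7b was at 95.2 to 136, and its testis form Cox7b2 had 0 reads in every mouse, as had Cox8c.

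**Figure D4:**
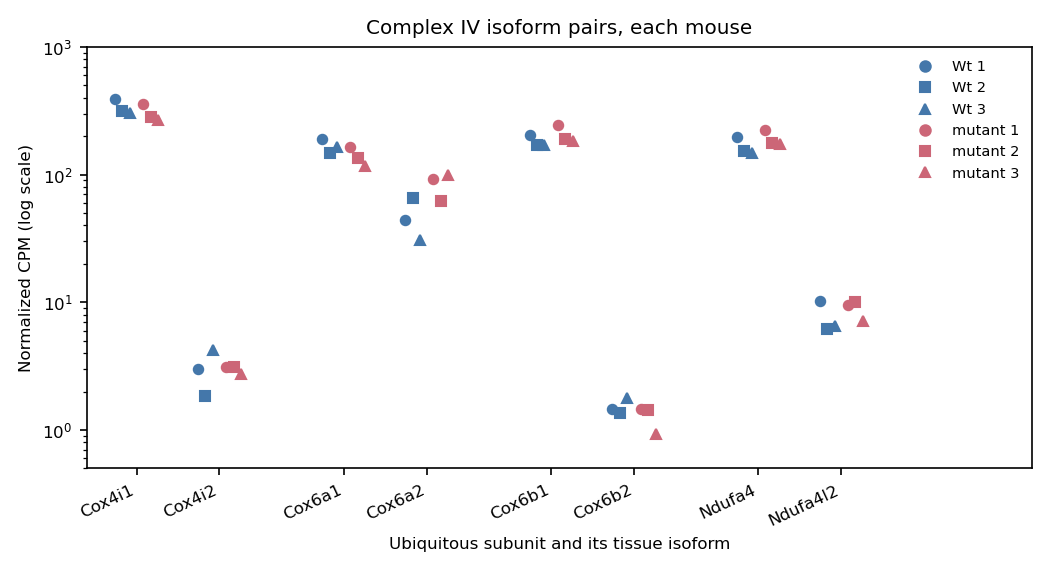
Normalized CPM on a log axis for 4 pairs of a widespread complex IV subunit and its tissue form, 1 point per mouse (Wt blue, mutant red, symbol by mouse number), not divided by gene length. Cox6a2 spans 30.9 to 99.0, and Cox4i2, Cox6b2 and Ndufa4l2 stay at or under 10.2.

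Complex V, the ATP synthase, had 17 of its 18 nuclear genes tested and 0 called. All 3 of its genes with an unadjusted p under 0.05 in limma were lower in mutant mice. At that p, 12% of all genes tested were lower and 12.2% higher. The fold change was above 0 in 12 of the 17. Atp5d, the delta subunit of the rotating central stalk, came closest to the threshold of all nuclear genes. Its values were 173, 165 and 160 in Wt mice and 141, 115 and 115 in mutant mice. The mutant mice were all lower, mutant mouse 1 by the least (log2 fold change -0.43, SE 0.10; limma, adjusted p = 0.0571). Without mutant mouse 1 Atp5d was called as lower, the only nuclear gene to be so, while 5.88% of all genes were called, 1.58% as lower. The DESeq2 Wald test called it as well, and so did limma on values scaled by library size only, which called 1.58% of all genes as lower. The edgeR quasi-likelihood test did not call it (adjusted p = 0.0815). After each mouse was centred within bins of GC content, an alternative chosen after the data were seen, its log2 fold change was -0.20 (limma, adjusted p = 0.296). Atp5l, subunit g of the membrane part, was at 29.7, 28.4 and 26.3 in Wt and at 23.7, 20.7 and 24.7 in mutant mice (log2 fold change -0.29, SE 0.10; limma, adjusted p = 0.1499). It shares 84.8% of its windows with pseudogenes, so its value is uncertain.

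The c subunit, whose ring turns as protons pass, is made from 3 genes that encode the same mature protein. Atp5g2 was at 3.23, 2.58 and 2.31 in Wt mice and at 1.21, 1.71 and 1.68 in mutant mice, without overlap, on 23 to 77 reads per mouse (log2 fold change -0.66, SE 0.19; limma, adjusted p = 0.0898). Atp5g3 had by far the highest value, with a mean of 121 per kb of exon against 2.25 for Atp5g1 and 1.26 for Atp5g2. It was at 311, 251 and 246 in Wt and 310, 238 and 228 in mutant mice, with overlap. Atp5g1 and Atp5g2 share 11.6% and 14.8% of their windows with other annotated genes, so their low values are uncertain. Atp5g3 shares none. Atp5b, the catalytic beta subunit, was at 1671, 1420 and 1276 in Wt mice and at 1858, 1352 and 1346 in mutant mice (log2 fold change 0.05, SE 0.20).

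Genes that did not pass the filter on low values were Cox6c2, Cox7b2, Cox8c, Ndufa11b, Ndufb4c, Ndufs6b, the second of the 2 identifiers named Atp5o (ENSMUSG00000116933), and the 6 mitochondrial genes above. Cox6c2, Ndufa11b, Ndufb4c and Ndufs6b are annotated as processed pseudogenes in GENCODE M21.

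In the median of the nuclear genes, mice of 1 genotype differed by more than the genotypes did, and this ran through all complexes. The median deviation from the mean of the 6 mice (log2) was 0.14 in Wt mouse 1, -0.10 in Wt mouse 2 and -0.14 in Wt mouse 3. For mutant mice 1 to 3 it was 0.25, -0.11 and -0.07. Mouse 1 was thus the high one in both genotypes. Wt mouse 1 had the highest Wt value in 73 of 81 nuclear genes and mutant mouse 1 the highest mutant value in 73, while over all genes tested these shares were 40.4% and 43.4%. Both held at once in 70 of the 81, against 29.8% of all genes. By complex, mutant mouse 1 was highest in all 5, at 0.22 to 0.28, and Wt mouse 1 came next. For the mitochondrial genes on the + strand the deviations were 0.15, 0.0095 and -0.40 in Wt mice and 0.41, -0.16 and 0.0052 in mutant mice. Mutant mouse 1 is also the library almost without B cell and lymph node markers, and the part of tissue makeup in its values was not tested. Without it the median log2 fold change of the nuclear genes was -0.05.

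**Figure D5:**
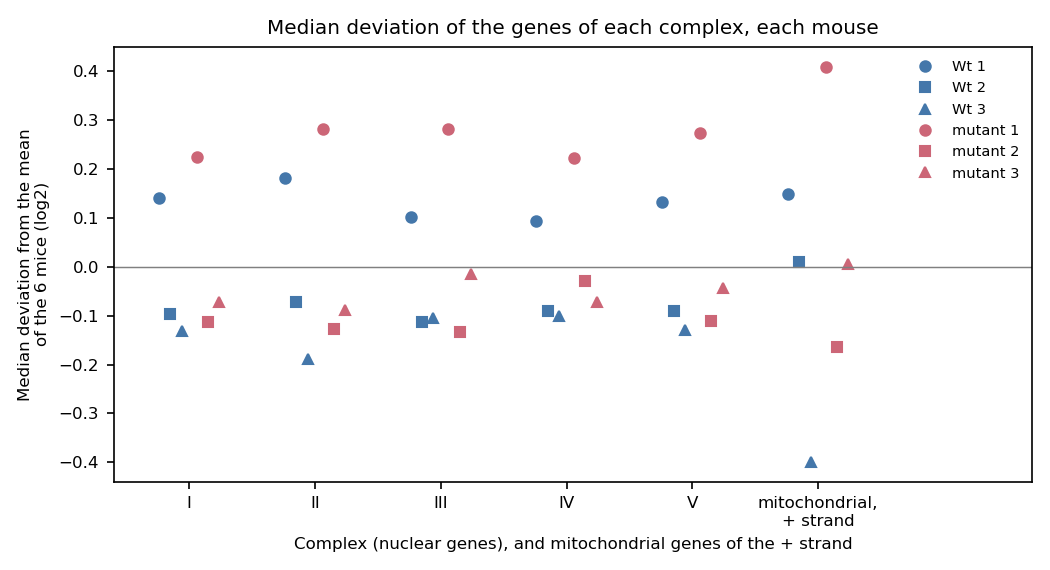
Median deviation (log2) of each mouse from the mean of the 6 mice, over the nuclear genes of each complex and over the mitochondrial genes of the + strand, with Wt mice in blue, mutant mice in red and symbols by mouse number. Mouse 1 of either genotype is highest in each nuclear set, with mutant mouse 1 at 0.22 to 0.28.

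The direction of the nuclear genes went with their base composition. Transcript GC content had a median of 49.4% in the 51 genes with a fold change above 0 and of 53.7% in the 30 below. The Spearman correlation of GC content with the fold change was -0.43 over the 81 genes, which share the same 6 libraries, and -0.24 over all 16731 genes with a value, given as a description. With the GC centring used for Atp5d, 0 nuclear genes were called and their median log2 fold change was 0.11. At that setting 5.84% of all genes were called. The fold change of Ndufs7 then went from -0.33 to -0.099, that of Cox8a from -0.31 to -0.082 and that of Cox6a1 from -0.28 to -0.018, while Cox7a2l stayed at -0.37.

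Many nuclear respiratory chain genes carry sites for the factors NRF1, GABP (of the ETS family) and YY1 near their starts. RefSeq promoter sequences (GRCm38.p6, 250 bases before to 50 after the start) were found for 65 of the 88 nuclear genes, 70 promoters in all. Both strands were searched for GCGCANGCG (NRF1), CGGAAG (ETS) and AAGATGGCG (YY1), where matches may overlap. The NRF1 letters were in 21 of the 70 promoters (30%, against 6.25% of all 32851 promoters), the ETS letters in 28 (40% against 16.8%) and the YY1 letters in 7 (10% against 1.40%). At least 1 of them was in 44. The 200 bases before the start are shown for Cox6a1, where NRF1 and ETS letters lie together, and for Ndufs5, with NRF1 letters only, to let both arrangements be seen. Neither gene was called. They lie at chr5:115348959-115349158 and chr4:123718187-123718386, both on the - strand, and are written 5′ to 3′ with matched letters in capitals.
Cox6a1: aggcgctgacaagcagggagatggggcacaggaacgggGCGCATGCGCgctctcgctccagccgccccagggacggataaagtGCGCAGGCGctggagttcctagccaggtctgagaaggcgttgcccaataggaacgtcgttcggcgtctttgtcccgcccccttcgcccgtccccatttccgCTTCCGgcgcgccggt
Ndufs5: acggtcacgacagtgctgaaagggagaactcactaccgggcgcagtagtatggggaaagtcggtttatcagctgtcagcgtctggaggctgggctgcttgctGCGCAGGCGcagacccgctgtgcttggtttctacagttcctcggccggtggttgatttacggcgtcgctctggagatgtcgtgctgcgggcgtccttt

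A match of letters is a description and not a bound site. Promoters of Ndufa5 also held the NRF1 letters and that of Uqcrh the ETS letters, while none of the 3 was found in the 200 bases before the starts of Atp5b, Atp5d and Cox5b.

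Genes that assemble the complexes or feed them were not called either. Of 62 assembly factors, carriers and related genes, such as Ndufab1, Cycs and Higd1a, 61 were tested and 0 called (median log2 fold change 0.02). Of 16 TCA cycle enzymes all were tested and 0 called, with 13 having a fold change above 0 and a median of 0.09. Over all genes tested, 8.03% were called. Among 21 regulators of mitochondrial biogenesis and of mitochondrial DNA expression, 0 were called higher and 2 lower, while 2.6% of all genes were called lower (median log2 fold change -0.040, with 9 above 0). Ppargc1b, a coactivator of mitochondrial genes, was at 12.7, 11.3 and 12.4 in Wt mice and at 6.34, 8.03 and 7.16 in mutant mice. The groups stood apart, with a log2 fold change of -0.72 (SE 0.13; limma, adjusted p = 0.0221). Polrmt, the RNA polymerase of mitochondria, was at 32.8, 34.7 and 36.4 in Wt and at 25.7, 23.2 and 25.3 in mutant mice, again apart (log2 fold change -0.48, SE 0.09; limma, adjusted p = 0.0225). Ppargc1a, the related coactivator best known from brown fat, was at 13.4 to 18.2 in Wt and 13.5 to 22.3 in mutant mice and was not called. Twnk, the helicase of mitochondrial DNA, had values of 17.5 to 18.4 in Wt and 19.6 to 21.4 in mutant mice without being called.

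Of 12 markers of brown or beige fat cells 10 were tested, 0 called higher and 1 lower, while 2.6% of all genes were called lower. In 3 of the 10 the fold change was above 0, and the median was -0.48. The gene called was Ucp1, the protein that lets protons back across the inner membrane to make heat, with 15.5, 7.39 and 15.3 in Wt and 3.46, 3.23 and 3.51 in mutant mice. All mutant mice were lower (log2 fold change -1.69, SE 0.29; limma, adjusted p = 0.0187). The 2 respiratory chain genes left out by the rule as brown fat markers differed in sign. Cox8b was at 70.2, 55.3 and 52.7 in Wt and 51.4, 34.2 and 44.7 in mutant mice (log2 fold change -0.46, SE 0.18; limma, adjusted p = 0.186). Cox7a1, which muscle expresses too, was at 15.04, 14.6 and 10.3 against 19.7, 12.5 and 17.6 (log2 fold change 0.30, SE 0.22; limma, adjusted p = 0.427).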

How the data were processed

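RNA-seq of inguinal fat was analysed in 3 mutant and 3 Wt mice. Group and mouse number came from the labels. The authors' core facility made and sequenced the libraries. The submitters' processing notes name Bowtie2 2.1.0, RSEM 1.2.15, edgeR and mm10, without roles, and the use of strand is not given in the sources used here. What the authors deposited is a normalized signal for each gene, namely CPM with 1 factor per mouse (0.962 to 1.109). Divided by what 1 read is worth, 100% of the values came out whole within a tolerance of 0.01 reads, and these reads were used for count tests. Both genotypes' factors differed from size factors computed over all 6 mice by at most 1.28%, so the 2 deposited tables were compared on 1 scale.

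The design foresaw limma for normalized values, and limma 3.58.1 with trend (R 4.3.3) was run on log2(value + 0.5) for genes kept by filterByExpr of edgeR 4.0.16, with Benjamini-Hochberg adjustment and an FDR of 0.05. The edgeR quasi-likelihood test on the recovered reads called 1152 genes (862 higher and 290 lower), and limma 1345 (909 and 436). Reads differed between mice of a genotype by more than counting error (chi-square over its degrees of freedom 19.3 to 64.9), so each library counted once. The scripts were tested on simulated data, in which 200 of 16740 genes were changed. There limma recovered 39 of 97 genes changed by 1 log2 unit and 94 of 103 changed by 2, with 15 false calls.

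Coordinates, shared sequence (windows of 50 bases), overlaps and GC content came from GENCODE M21 on GRCm38, in which all 101 genes were found. Copies that share sequence were not separated further. Alternatives were DESeq2 1.42.0, edgeR, other scalings, pseudocounts of 0.1 and 1, other filters, an FDR of 0.1, leaving out each mouse, and the mouse number as a replicate block. GC centring was added after the data were seen. Named genes were all mitochondrial genes, in each complex the 3 nuclear genes with the smallest p and the one highest per kb, tissue forms with their partners, genes past the FDR and those not tested, and list genes past the FDR. Atp5g1, Atp5g3, Twnk, Myh2, Myh7, Mb, mt-Tp, mt-Te and the other mitochondrial tRNA genes named were added after their values were seen. The genes described and the lists were chosen with earlier results of these data known. Marker lists of white fat cells, B cells and lymph node, epithelium, macrophages and endothelium had 0 of 10, 0 of 9, 0 of 7, 0 of 6 and 0 of 5 tested genes called. Over all genes tested the share was 8.03%. Python 3.11.15, pandas 2.3.3, SciPy 1.17.1, Matplotlib 3.10.9 and bedtools 2.31.1 were used.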

Additional observations from a re-analysis of the deposited data

How the results depend on the processing

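mt-Nd6 was called under each alternative, and the medians of nuclear and mitochondrial genes moved by less than the spread between mice. Over the whole table, 1345 genes were called, against 2106 with DESeq2, 598 with at least 10 reads in every mouse, 4042 with the replicate block, 3113 with GC centring and the block, 2217 at an FDR of 0.1, and 547 to 985 without 1 mouse. Of nuclear respiratory chain genes, 0 were called, against 2 with DESeq2, 1 with library size only, 3 at an FDR of 0.1 (all lower), 16 with the replicate block (12 higher and 4 lower), 10 with GC centring and the block (8 and 2, with 18.6% of all genes called), and 0 to 1 without 1 mouse, the 1 being Atp5d without mutant mouse 1. The median log2 fold change without 1 mouse ran from -0.048 to 0.14 for nuclear and from 0.0032 to 0.33 for mitochondrial genes.

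The mice are numbered 1 to 3 in both genotypes. Deviations from the genotype means of same-numbered mice correlated over genes at 0.688, 0.0582 and 0.562 for numbers 1 to 3. The mean for the 6 other combinations was -0.196. Mice numbered 1 and 3 thus varied together across the genotypes, while the correlation for the remaining number was low. No label ties a number to a litter or day, and the main test was run without the block. The count of nuclear genes called depends on that choice, at 0 without the block and 16 with it. Whether the pairing reflects a shared litter or day was not tested. With the block, 24.1% of all genes were called, 10.2% higher and 13.9% lower. Of 10 brown or beige fat markers 6 were then lower, and of 21 regulators of biogenesis 6. The 12 nuclear genes then higher were Ndufa4, Ndufa5, Ndufb3, Ndufb5, Ndufs1, Ndufs4, Ndufs5, Ndufv2, Uqcrb, Cox5b, Atp5c1 and Atp5j2, and the 4 lower were Atp5d, Cox7a2l, Cox8a and Ndufs7. They had log2 fold changes of -0.43 to 0.42.

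Of 363 values of the 33 named genes over the settings that keep all mice, 341 kept their direction and side of the threshold, 19 passed the threshold, and 3, from 2 genes, changed sign. These were Cox4i2 with DESeq2 (-0.0067) and Sdha with GC centring, without and with the block (-0.017 in both). Of 198 values without 1 mouse, 14, from 8 genes, changed sign, none of them called. Over the 6 mice left out in turn, the log2 fold change of these genes ran from -0.10 to 0.16 for Atp5b, -0.23 to 0.28 for Cox4i2, -0.098 to 0.14 for Sdha, -0.034 to 0.22 for Sdhb, -0.044 to 0.18 for Sdhd, -0.028 to 0.24 for mt-Co1, -0.15 to 0.29 for mt-Nd2 and -0.11 to 0.20 for mt-Nd5. Except for Cox4i2 (without Wt mouse 2), values below 0 came without Wt mouse 3 or mutant mouse 1. The cause was not tested. Depth limits Cox4i2, Cox6b2 and Atp5g2, with 20 to 101 reads per mouse.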
